A study of Homo sapiens with 12 samples.

Results

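The comparison set the 2 H3K27ac peak lists of H358 against the 2 of H2009, both human lung adenocarcinoma cell lines labelled as untreated and grown in RPMI medium with serum. The 4 libraries belong to a series of 12 that measured acetylated histone H3 in cancer cell lines with 1 antibody, and each library has a peak list of its own. Overlapping peaks of the 4 lists, on chromosomes 1 to 22 and X, were merged into 46974 regions. A region was called specific to a line when both libraries of that line and neither library of the other had a peak in it. This gave 3037 H358-specific regions, 6.47% of all regions, and 2990 H2009-specific regions, 6.37%, together 6027 regions.

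Acetylation of lysine 27 on histone H3 marks active promoters and enhancers, and the set of marked enhancers differs between cell types more than the set of marked promoters does. In lung adenocarcinoma, factors such as NKX2-1, FOXA1 and FOXA2 maintain the lung epithelial program, and their own genes lie among clusters of marked regions in cells that express them. A peak list states where the mark was called, so a region without a peak may still hold signal under the calling threshold.

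The 4 lists were close in size. H358 held 26866 and 26954 peaks and H2009 held 26887 and 26412. They covered 11.77 and 12.04 Mb in H358 and 10.85 and 11.44 Mb in H2009, and median peak widths were 375, 382, 347 and 373 bp. Read depth is unknown, since a peak list holds no read numbers. The labels do not say whether replicates came from separate cultures, so a p-value here reflects no more than the spread among the libraries, and that spread may be technical.

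The 2 lines shared a core of acetylated regions, and the regions that separated them were about as numerous on each side. All 4 libraries had a peak in 11449 regions, 24.4% of the total. A single library alone had a peak in 20441 regions, 43.5%, so most regions outside the core were not found again in the replicate. Of the 17742 regions found in both H358 libraries, 17.1% were absent from H2009 (95% Wilson interval 16.6 to 17.7). Of the 16851 found in both H2009 libraries, 17.7% were absent from H358 (17.2 to 18.3). These intervals cover counting error only.

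Pairing the libraries by line gave more exclusive regions than pairing them in any other way. The 6027 regions of the pairing by line were 3.54 times the 1704 found when libraries of the same replicate number were put together, and 3.58 times the 1685 of the crossed pairing. With 4 libraries only 3 pairings exist. The one-sided exact permutation p was 0.333, the smallest this design allows, so no result of this comparison can pass a usual threshold.

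**Figure D1:**
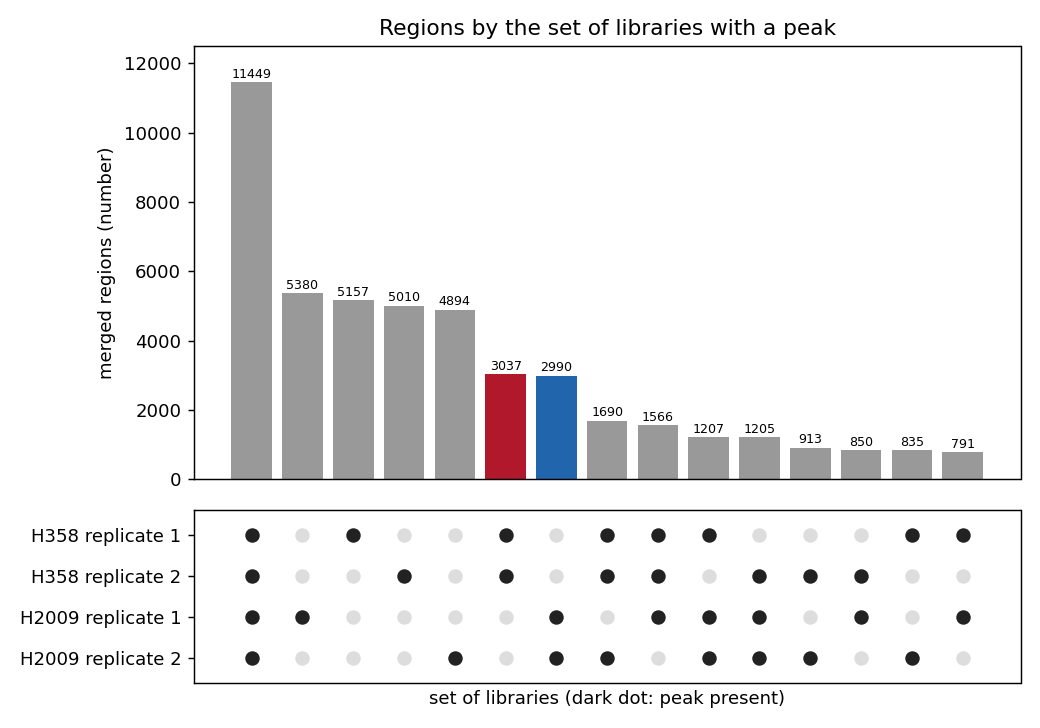
Number of merged regions (vertical axis) for each of the 15 sets of libraries with a peak; dark dots show which libraries belong to a set, and the H358-specific and H2009-specific sets are in red and blue. The 3037 and 2990 line-specific regions lie below the single-library sets of 4894 to 5380 regions and above every set that mixes the lines except the 11449 regions of all 4 libraries.

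Around 14 lung lineage factors there were 11 H358-specific and 4 H2009-specific regions. For each listed gene, the bases under peaks were summed within 100 kb of its start. A neighbourhood was said to lean to a line when the lower library of that line had at least 2 times the bases of the higher library of the other and at least 1 region specific to that line. Of 14 lung lineage factors, 4 leaned to H358 (NKX2-1, FOXA1, FOXA2 and KLF5) and 0 to H2009. Over all 10363 windows of 200 kb that held a peak, 5.58% leaned to H358 and 5.80% to H2009. The median difference in called bases, H358 minus H2009, was 238 bp over the lineage factors and 38 bp over all windows. Over the 7 housekeeping genes listed as a reference it was 518 bp, above that of the lineage factors. Earlier results of these data were known when the genes were listed, so the count is a description.

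NKX2-1, the transcription factor that defines the distal lung epithelium and serves as a diagnostic marker of lung adenocarcinoma, had 2676 and 2779 called bases in H358 and 1114 and 738 in H2009. The lines did not overlap. Its neighbourhood held 4 H358-specific regions and 1 H2009-specific region. The H358-specific region nearest the start, at chr14:36987667-36988620 on hg19, was 954 bp wide and reached within 1 kb of the start with 191 bases in H358 replicate 1 and 0 in replicate 2. Its folds of 2.92 and 2.61 stood at percentiles 0.476 and 0.156 of the folds in their lists. The authors' −log10 q values there were 6.48 and 5.06, against medians of 5.04 and 5.14 for H358-specific peaks. The region was thus low by fold and not by −log10 q. The H358-specific region 40.8 kb into the gene's downstream side, at chr14:36948417-36948923, was of middle rank, with folds of 5.53 and 5.28. The H2009-specific region 14.5 kb downstream, at chr14:36974674-36975107, had folds of 3.21 and 3.15, at percentiles 1.4 and 1.3. A further NKX2-1 region 62.0 kb upstream, at chr14:37051144-37051806, had a peak in H358 replicate 1 (484 bases) and in both H2009 libraries (433 and 386 bases). NKX2-1 thus had peaks around it in both lines, some of them at a place they shared.

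FOXA1 and FOXA2 encode pioneer factors that open chromatin at lung and other endodermal enhancers. FOXA1 had 1724 and 973 called bases in H358 and 0 and 0 in H2009. The region at its start, chr14:38064519-38064942, was again low by fold, with H358 folds of 2.87 and 3.40 at percentiles 0.376 and 3.07. Its −log10 q values were 2.70 and 5.21. That FOXA1 region had a peak in 1 of the 4 further H2009 lists described later, so its absence from both lists compared here is not an absence from the line. FOXA2 had 1494 and 1715 called bases in H358 and 0 and 0 in H2009. Its start was covered by a single H358-specific region of 1626 bp at chr20:22563556-22565181, the second widest of all 3037, with folds of 4.83 and 4.49.

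KLF5, a zinc finger factor of proliferating epithelia, had 1328 and 1428 called bases in H358 and 0 and 0 in H2009. The KLF5 bases came from 1 H358-specific region 31.1 kb downstream of the start, with folds of 5.81 and 6.22, and from regions of single libraries. GATA6, an endodermal factor of the developing lung, did not lean to either line: it had 947 and 809 called bases in H358 and 1007 and 1109 in H2009. A GATA6 region just downstream of the start was present in all 4 libraries, with an H358-specific region on its upstream side at chr18:19748964-19749291 and an H2009-specific region on its downstream side at chr18:19751062-19751675. The line-specific regions thus flanked a shared GATA6 region on opposite sides.

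The start-site sequences of NKX2-1 and FOXA1 are shown because the H358-specific regions nearest these starts were among the lowest of their lists by fold. They come from RefSeq on GRCh38.p14, run 5′ to 3′ along the gene's strand from 250 bases before the start to 50 after it, and lie on another build than the hg19 peaks (chr14:36520183-36520482, minus strand, for NKX2-1, and chr14:37595200-37595499, minus strand, for FOXA1). Capitals mark matches on either strand to 4 motifs: the GC box GGGCGG, the TATA box TATAAA, the CCAAT box CCAAT and the AP-1 site TGANTCA.
NKX2-1: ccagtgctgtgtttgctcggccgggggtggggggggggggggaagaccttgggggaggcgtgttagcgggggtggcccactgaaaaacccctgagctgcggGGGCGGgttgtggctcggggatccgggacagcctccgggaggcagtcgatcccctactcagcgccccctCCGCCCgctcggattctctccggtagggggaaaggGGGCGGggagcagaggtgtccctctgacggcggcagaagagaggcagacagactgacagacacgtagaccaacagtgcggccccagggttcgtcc
FOXA1: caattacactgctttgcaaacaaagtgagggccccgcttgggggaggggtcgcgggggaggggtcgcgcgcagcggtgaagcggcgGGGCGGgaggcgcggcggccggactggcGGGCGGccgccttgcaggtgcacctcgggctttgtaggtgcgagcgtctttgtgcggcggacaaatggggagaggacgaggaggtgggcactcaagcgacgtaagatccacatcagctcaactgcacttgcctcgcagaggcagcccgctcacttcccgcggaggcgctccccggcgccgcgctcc
The NKX2-1 sequence held 3 GC boxes and the FOXA1 sequence 2, and neither held one of the other motifs. Of 35116 promoters in the table, 45.0% held a GC box, 11.5% a TATA box, 34.6% a CCAAT box and 7.71% an AP-1 site. NKX2-1 had 21 CG dinucleotides and FOXA1 34, against a median of 14, and their GC content was 69.0% and 69.3%, against a median of 58.7%. A match describes letters in this window and is not a measured binding site. The NKX2-1 region began 0.81 kb downstream of the placed start, outside the printed window. The FOXA1 region began 0.194 kb upstream of its start, so only a part of it can fall in the window.

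**Figure D2:**
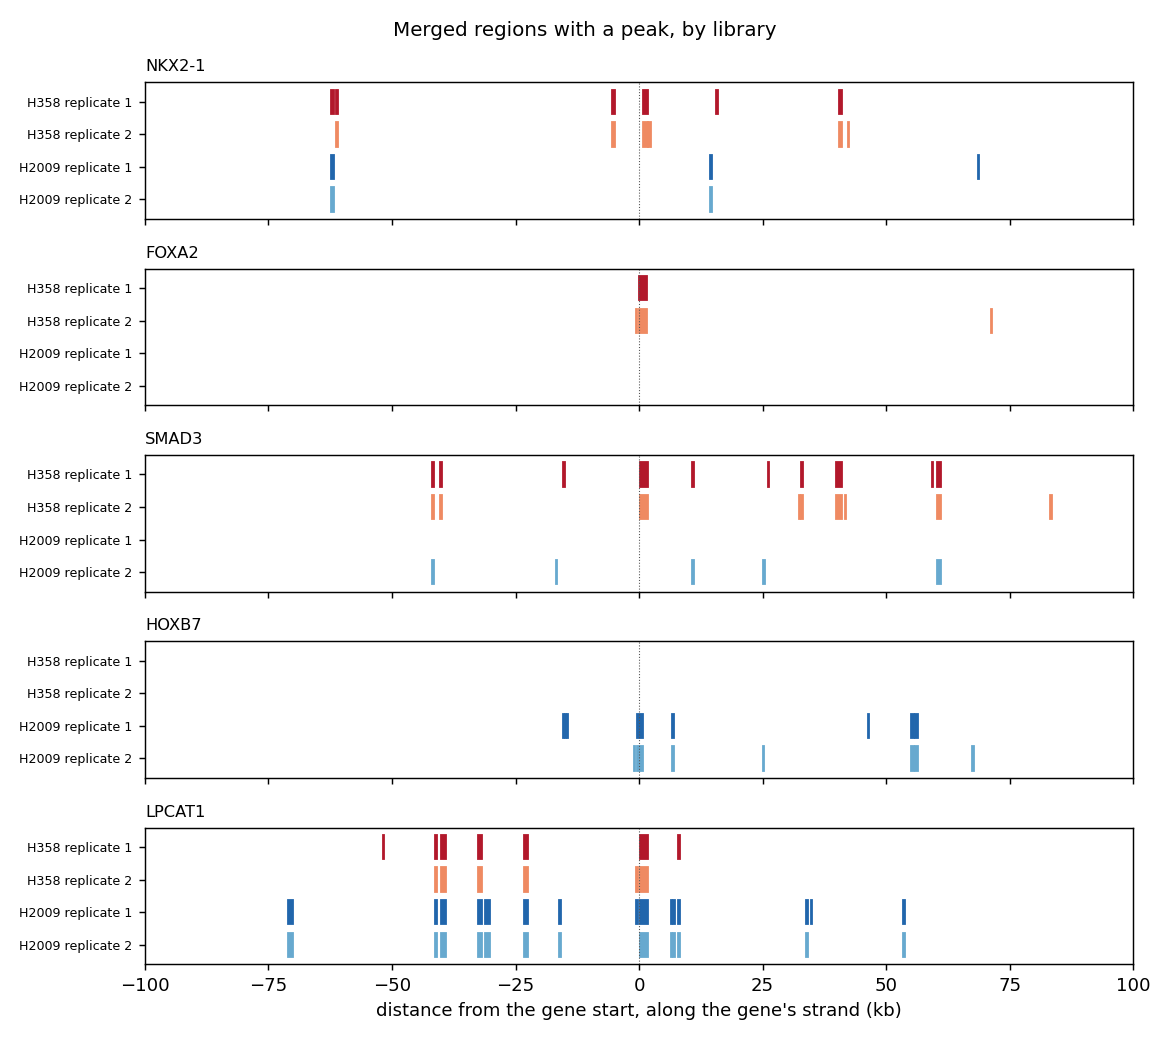
Merged regions in which each library had a peak (rows), drawn at their distance in kb from the start of NKX2-1, FOXA2, SMAD3, HOXB7 and LPCAT1 along the gene's strand; bars have a thin outline so that short regions can be seen. FOXA2 is marked in H358 rows alone and HOXB7 in H2009 rows alone, while the NKX2-1 and LPCAT1 neighbourhoods hold peaks of both lines.

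Among 18 alveolar and secretory lung genes, 1 neighbourhood leaned to each line, against 5.58% of all windows for H358 and 5.80% for H2009. SFTPC, the surfactant protein of alveolar type 2 cells, had 6018 and 7026 called bases around it in H358 and 1375 and 990 in H2009, with 6 H358-specific regions and 0 H2009-specific regions. No library had a peak within 1 kb of the SFTPC start, so the bases belong to its neighbourhood and not to its own promoter. LPCAT1, which makes the main lipid of surfactant, had 3336 and 3601 called bases in H358 and 7298 and 7701 in H2009, with 7 H2009-specific regions. The LPCAT1 start itself had a peak in all 4 libraries. SFTPA1, SLC34A2, CLDN18 and PDPN, further alveolar genes, had 0 called bases in every library.

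At start sites a peak in both libraries of a line and neither of the other within 1 kb was counted. Windows of 2 kb with a peak met this rule for H358 in 6.83% and for H2009 in 7.07% of 48512. Of the 139 listed genes, 9 starts met it for H358 (FOXA1, FOXA2, LAMP3, ABCA3, CLDN4, DUSP4, STK11, AXIN2 and SMAD3) and 5 for H2009 (TWIST1, AXL, AREG, CCND1 and HOXB7), and 59 had a peak in all 4 libraries. As a share of 139 genes, 9 is close to the window share for H358 and 5 lies below the window share for H2009. The window shares count windows with a peak, while 36 of the 139 starts had none.

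ABCA3, the transporter that loads lipid into the lamellar bodies of alveolar type 2 cells, had the strongest of the 9 H358 starts. At chr16:2391015-2391414, folds were 8.36 and 8.63, at percentiles 93.1 and 94.9 of their lists, and the summits of the 2 H358 peaks lay 22 bp apart. No list of HCC95, Ishikawa or BICR31, the other lines of the series, and none of the 4 further H2009 lists had a peak there. Around ABCA3 as a whole the lines differed little, with 3125 and 2989 called bases in H358 and 2640 and 2693 in H2009. LAMP3, a lamellar body membrane protein, had a start region of middle rank in H358, with folds of 5.40 and 5.19 at chr3:182880236-182880648. The ABCA3 start sequence is printed because the peak near this start was both strong and present in H358 alone (chr16:2340679-2340978, minus strand, GRCh38.p14).
ABCA3: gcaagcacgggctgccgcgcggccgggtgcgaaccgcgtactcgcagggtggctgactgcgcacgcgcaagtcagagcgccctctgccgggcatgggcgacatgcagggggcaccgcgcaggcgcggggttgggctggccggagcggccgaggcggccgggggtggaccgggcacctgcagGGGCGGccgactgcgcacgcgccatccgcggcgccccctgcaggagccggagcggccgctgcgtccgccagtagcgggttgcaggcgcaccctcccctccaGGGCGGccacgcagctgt
The ABCA3 sequence held 2 GC boxes and 42 CG dinucleotides, with a GC content of 78.0%. The ABCA3 region lay 0.268 kb from the placed start, outside the printed window, so these letters are not those under the peak.

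Summed over the windows of 16 epithelial identity genes, the counts were 20 for H358-specific and 8 for H2009-specific regions. A region in the windows of neighbouring genes, such as KRT8 and KRT18, was counted for each gene. The distinct regions may thus be fewer, and summed bases count such peaks repeatedly too. Of the 16 genes, 0 leaned to either line and 8 had a start peak in all 4 libraries, among them CDH1, EPCAM, ESRP1 and KRT18. CDH1, the adhesion molecule E-cadherin, had 3868 and 4913 called bases in H358 and 3420 and 3895 in H2009. CLDN4, a tight junction protein, came close to leaning, with 3521 and 4062 in H358 and 1455 and 1816 in H2009. The median difference over the list, H358 minus H2009, was 705 bp against 38 bp over all windows. Over the 7 housekeeping genes it was 518 bp, in the same direction. In H358, all windows with a peak held medians of 749 and 757 bases and epithelial windows 3552.5 and 4195. In H2009 the medians were 696 and 727 against 2611.5 and 3186, so the bp differences stand on unlike totals. Summed bases over the epithelial list were 58891 and 67399 in H358 and 47701 and 55844 in H2009. Both H358 sums lay above both H2009 sums although no gene met the leaning rule.

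The lists fit the adenocarcinoma label in part. Around 6 squamous and basal markers the summed bases were 6953 and 5855 in H358 and 7818 and 8264 in H2009. Most of these lay around KRT14, with 4763 and 3589 in H358 and 5350 and 5140 in H2009. Within 1 kb of the KRT14 start there were 247 bases in H358 replicate 1 and 0 in every other library. These KRT14 bases thus belong mostly to its neighbourhood and not to its own promoter. KRT5 and KRT6A had 0 bases except in H2009 replicate 2, with 374. Among the neuroendocrine markers, SYP had 3477 and 4072 bases in H358 and 1368 and 1937 in H2009, with line-specific regions of both lines. NEUROD1 had 0 and 604 bases in H358 and 776 and 454 in H2009, and CHGA and INSM1 had 0 in every library. The immune marker PTPRC had 1012 bases in H358 replicate 1 and 0 in the other libraries. The fibroblast markers COL1A1 and COL1A2 summed to 2291 and 2974 in H358 and 3803 and 4926 in H2009. All 7 housekeeping genes had a start peak in all 4 libraries. SFTPB, SFTPC and NAPSA, defining alveolar markers, had no start peak in any library.

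Genes of mesenchymal state and of body position were among the 5 with an H2009-only start. TWIST1, a factor of mesenchymal and migratory states, had 1166 and 989 called bases in H2009 and 0 and 0 in H358. TWIST1 held 2 H2009-specific regions at its start, of which chr7:19156828-19157723 had folds of 5.72 and 5.41. AXL, a receptor tyrosine kinase often high in mesenchymal tumour cells, had an H2009-specific start region with folds of 4.14 and 2.74, at percentiles 14.9 and 0.22. Around AXL as a whole, called bases were 4043 and 3584 in H358 and 4000 and 4186 in H2009. Of 13 mesenchymal and matrix genes, 1 leaned to H2009 and 0 to H358, against 5.80% and 5.58% of all windows. VIM and ZEB1 had peaks around them in both lines.

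HOXB7, a homeobox gene that records position along the body axis, had 3446 and 3166 called bases in H2009 and 0 and 0 in H358. Its start was covered by an H2009-specific region of 1312 bp at chr17:46687484-46688795, the fifth widest of all 2990, with low folds of 4.14 and 3.52. The −log10 q values of the start region were 6.37 and 4.22, against medians of 4.78 and 5.07 for H2009-specific peaks. Another H2009-specific region 6.9 kb downstream had folds of 6.73 and 5.41. The HOXB7 neighbourhood held 4 H2009-specific regions and 0 H358-specific regions. The 3 other HOX genes listed did not lean: HOXA9 had 2022 and 1551 called bases in H358 and 3511 and 3289 in H2009.

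Of 19 receptors, ligands and MAPK feedback genes, 2 leaned to H358 and 0 to H2009, against the 5.58% and 5.80% of windows, and 12 starts had a peak in all 4 libraries. DUSP4 and SPRY4 encode feedback inhibitors of the MAPK pathway. DUSP4 had 2661 and 2419 called bases in H358 and 777 and 509 in H2009. Its H358-specific start region had low folds of 3.10 and 2.67. SPRY4 had 3774 and 3658 in H358 and 1754 and 1794 in H2009, and the SPRY4 start had a peak in all 4 libraries. FOSL1, the AP-1 subunit FRA1 induced by MAPK signalling, had 5950 and 6557 in H358 and 2391 and 2320 in H2009, with 4 H358-specific regions. The strongest FOSL1 region lay 66.9 kb downstream at chr11:65600746-65601399, with folds of 7.78 and 8.55. Of 8 AP-1 and early response genes, FOSL1 alone leaned to H358 and 0 leaned to H2009, against 5.58% and 5.80% of all windows. The median difference over the AP-1 list, H358 minus H2009, was -339 bp. JUND, another AP-1 subunit, had 1882 and 2712 bases in H358 and 4808 and 4044 in H2009 without meeting the leaning rule.

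MYC, the growth-promoting transcription factor, had 2389 and 5009 called bases in H358 and 1575 and 1720 in H2009. H358 replicate 2 stood apart, and the H358 replicates differed from each other by more than H358 replicate 1 differed from H2009. Within the gene, an H2009-specific region at chr8:128749165-128749810 and an H358-specific region at chr8:128750172-128751268 lay side by side. They were less than 500 bp apart, so merging peaks at that distance joins them into a region of both lines. Folds were 3.11 and 3.14 in the H2009 region and 3.03 and 2.79 in the H358 region, all below percentile 1.3 of their lists.

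EGFR, a receptor tyrosine kinase upstream of the MAPK pathway, had 1498 and 1364 called bases in H358 and 1907 and 1657 in H2009. The EGFR start had a peak in all 4 libraries, with folds of 6.02 and 7.06 in H358 and 6.41 and 6.09 in H2009, and the neighbourhood did not lean to either line.

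AREG, an EGFR ligand, had an H2009-specific region at its start, chr4:75310968-75311260, with folds of 4.28 and 6.41, at percentiles 17.9 and 77.1. The AREG neighbourhood as a whole had 1313 and 1167 called bases in H358 and 1448 and 1239 in H2009. The start region was the 1 line-specific region in that window. The start sequences of AREG and AXL are printed as H2009 counterparts of the H358 starts (chr4:74444886-74445185, plus strand, for AREG, and chr19:41218973-41219272, plus strand, for AXL, GRCh38.p14).
AREG: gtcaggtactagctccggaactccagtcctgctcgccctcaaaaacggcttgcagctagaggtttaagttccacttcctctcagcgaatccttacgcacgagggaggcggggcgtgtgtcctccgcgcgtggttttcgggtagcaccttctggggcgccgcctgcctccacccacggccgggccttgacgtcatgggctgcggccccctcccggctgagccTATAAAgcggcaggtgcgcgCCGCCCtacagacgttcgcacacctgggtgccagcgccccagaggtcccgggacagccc
AXL: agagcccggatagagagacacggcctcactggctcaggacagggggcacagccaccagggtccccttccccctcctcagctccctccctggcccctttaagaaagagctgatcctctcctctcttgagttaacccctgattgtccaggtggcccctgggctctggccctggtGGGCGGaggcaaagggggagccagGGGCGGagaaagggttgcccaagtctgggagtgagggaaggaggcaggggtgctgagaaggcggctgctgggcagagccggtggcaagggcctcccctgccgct
The AREG sequence held 1 TATA box and 1 GC box, and the AXL sequence 2 GC boxes. AXL had 7 CG dinucleotides, under the median of 14 for all promoters, and AREG had 27. The AREG region lay 0.115 kb from its placed start, so at most a part of it falls in the printed window.

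In the WNT and TGF-beta list, 2 of 6 genes leaned to H358 and 0 to H2009, against 5.58% and 5.80% of all windows. SMAD3, which carries TGF-beta signals to the nucleus, had 4324 and 4811 called bases in H358 and 0 and 1665 in H2009. The SMAD3 start region at chr15:67358436-67360018, 1583 bp wide, was H358-specific with folds of 4.19 and 3.72. H2009 replicate 2 had peaks around SMAD3 and replicate 1 had none, so the H2009 libraries differed from each other there. AXIN2, a feedback inhibitor of WNT signalling, had 546 and 777 in H358 and 0 and 0 in H2009. The AXIN2 neighbourhood held 1 H358-specific region, 1.46 kb downstream of the start.

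Of 13 genes of the NFE2L2 pathway, the oxidative stress response, 1 leaned to H2009 and 0 to H358. AKR1B10, an aldo-keto reductase, had 453 and 0 called bases in H358 and 2563 and 1310 in H2009, and its start had no peak. NFE2L2 and KEAP1 had a start peak in all 4 libraries. In the inflammation list 0 of 9 genes leaned, and among growth and tumour suppressor genes 0 of 12. In all, 10 of 139 genes leaned to H358 and 4 to H2009, against 5.58% and 5.80% of windows. Over the 139 genes the median difference was 52 bp. The larger H358 count did not hold throughout: keeping the higher-ranked 50% of each list gave 9 and 9 genes, leaving out replicate 1 of each line gave 22 and 9, and leaving out replicate 2 gave 21 and 16. FOXA1, SPRY4 and AXIN2 no longer leaned with the higher-ranked peaks alone. With 250 kb to each side LPCAT1, FOSL1, DUSP4, SPRY4 and SMAD3 no longer leaned, and with 50 kb LPCAT1, AKR1B10 and SPRY4 did not.

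**Figure D3:**
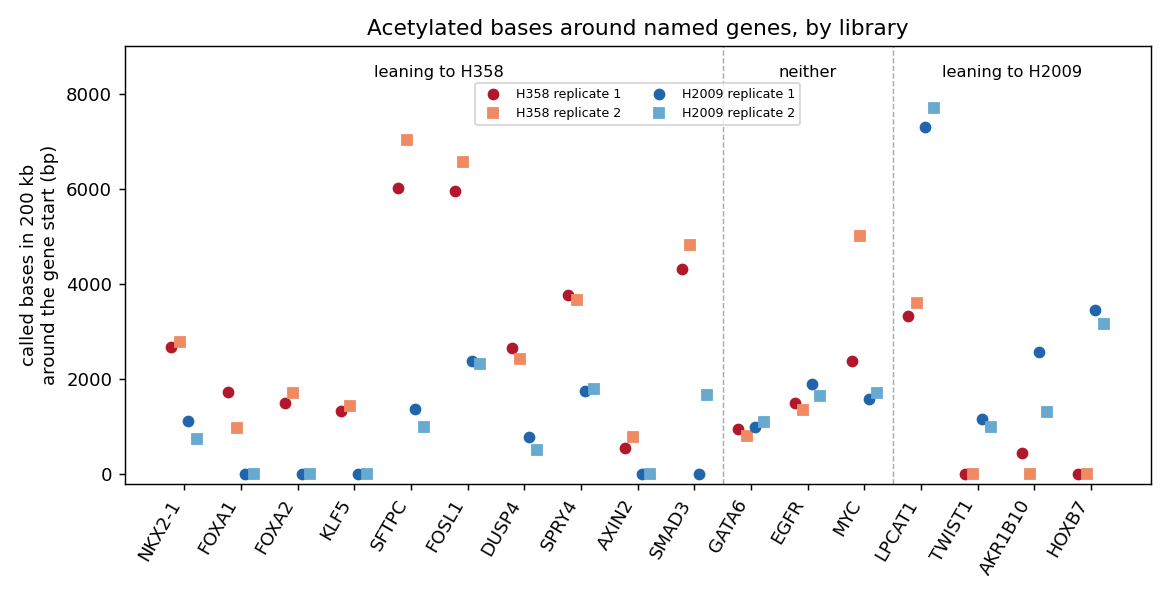
Called bases within 100 kb of the gene start (vertical axis, bp) in each of the 4 libraries, for the 10 genes leaning to H358, 3 further named genes that leaned to neither line and the 4 leaning to H2009. In each leaning gene both libraries of one line lie above both of the other, from 0 bases in H2009 at FOXA2 to 7298 and 7701 bases in H2009 at LPCAT1.

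The chromosome moved with the gene results. Of the 10 genes leaning to H358, 7 lie on chromosomes whose other line-specific regions were mostly H358-specific. Elsewhere on chromosome 14 than around NKX2-1 there were 186 H358-specific and 55 H2009-specific regions. For FOXA2 on chromosome 20 the split elsewhere was 115 to 47, for SFTPC on chromosome 8 it was 234 to 96, for FOSL1 on chromosome 11 it was 172 to 104 and for SMAD3 on chromosome 15 it was 126 to 73. The other 3 lie on chromosomes with more H2009-specific regions: 43 to 128 on chromosome 13 for KLF5, 138 to 219 on chromosome 5 for SPRY4 and 136 to 193 on chromosome 17 for AXIN2. Their own blocks of 5 Mb, which count the gene's neighbourhood too, held more H358-specific regions. The block split was 4 to 0 for KLF5, 12 to 6 for SPRY4 and 14 to 12 for AXIN2. Whether these 3 genes differ from their blocks was not tested. All 4 genes leaning to H2009 lie on chromosomes with more H2009-specific regions elsewhere, such as 137 to 189 on chromosome 17 for HOXB7. The part of the chromosome in these gene results was not tested.

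Line-specific regions were spread unevenly over the chromosomes. On chromosome 14, 190 regions were H358-specific and 56 H2009-specific, so H358 held 77.2% (Wilson interval 71.6 to 82.0). H358 also held 71.4% on chromosome 8, with 240 against 96, and 71.2% on chromosome 20, with 116 against 47. H2009 held most on chromosome 10, where H358 had 43 against 138, or 23.8% (18.1 to 30.5), and on chromosome 13, with 44 against 128, or 25.6%. H358-specific regions were the larger number on 10 chromosomes and H2009-specific regions on 13, and the interval excluded 50% on 8 chromosomes for each line. Neighbouring regions are not independent, so these intervals are too narrow.

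The same chromosomes differed in whole peak number. Chromosome 14 held 1023 and 986 peaks in H358 and 753 and 709 in H2009, and chromosome 10 held 749 and 749 in H358 and 1004 and 995 in H2009. Both H358 libraries had more peaks than either H2009 library on 9 of 23 chromosomes, 39.1%, and both H2009 libraries had more on 11, 47.8%. All 9 and all 11 were chromosomes where that line also held most line-specific regions. Whole peak numbers include the peaks of line-specific regions, so this agreement is in part built in. Regions of a single library, which the rule for line-specific regions leaves out, were more numerous in both H358 libraries on 8 chromosomes and in both H2009 libraries on 8. On chromosome 14, single-library regions numbered 195 and 172 in H358 and 122 and 102 in H2009. Chromosome 22 differed from this pattern: H358 held 66.98% of its line-specific regions, but the H2009 libraries had more single-library regions there, 98 and 104 against 94 and 97. DNA copy number and an input library were not analysed here, and a difference in copies cannot be told apart from a difference in acetylation in these lists.

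**Figure D4:**
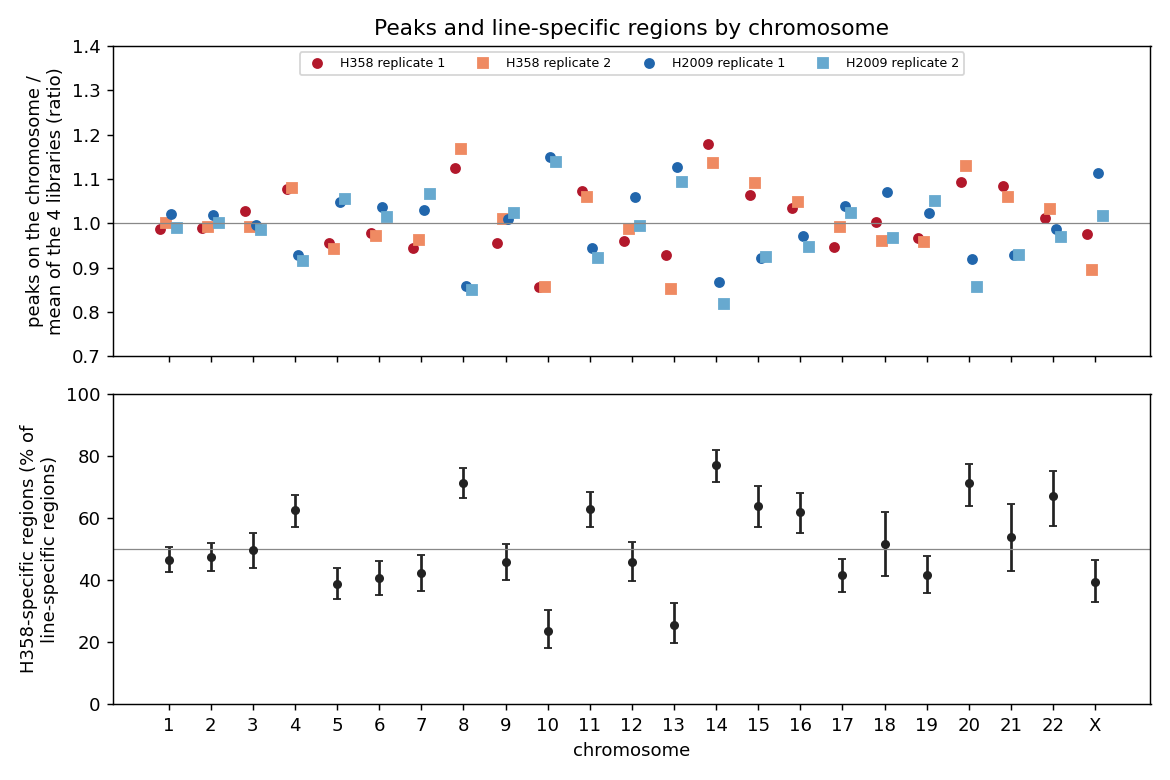
Peaks of each library on each chromosome divided by the mean of the 4 libraries (top, ratio) and the H358-specific share of line-specific regions with its 95% Wilson interval (bottom, percent). Chromosomes 8, 14 and 20 lie high for H358 in both panels, and chromosomes 10 and 13 lie high for H2009. The peaks of the top panel include those of line-specific regions.

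Within chromosomes the unevenness was local. Of 278 blocks of 5 Mb with at least 10 line-specific regions, 40 were at least 80% H358-specific and 37 at least 80% H2009-specific. The block from 65 to 70 Mb on chromosome 11, with FOSL1 and CCND1, had 39 H358-specific and 8 H2009-specific regions. The block from 25 to 30 Mb on chromosome 8, with DUSP4, had 27 against 2. In the other direction, the block from 45 to 50 Mb on chromosome 17, with HOXB7, had 4 against 33, and the block from 105 to 110 Mb on chromosome 13 had 0 against 22. Chromosome 17 as a whole had 41.5% H358-specific regions, so its block with HOXB7 departed further than the chromosome did.

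The densest windows of 1 Mb are given with some of the genes in them, whose starts were placed after these windows were seen. For H358 the window from 105 to 106 Mb on chromosome 14, with AKT1 and the Notch ligand JAG2, held 14 H358-specific regions and 1 H2009-specific region. The window from 65 to 66 Mb on chromosome 11, with the nuclear RNAs NEAT1 and MALAT1 as well as FOSL1, held 13 against 2, and the window from 79 to 80 Mb on chromosome 17 held 12 against 4. For H2009 the window from 48 to 49 Mb on chromosome 17, with the integrin gene ITGA3, held 15 against 4. The window from 1 to 2 Mb on chromosome 5, with TERT and LPCAT1, held 13 against 3. A window on chromosome 13, from 106 to 107 Mb, held 10 H2009-specific regions and no region of all 4 libraries.

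TERT encodes the catalytic subunit of telomerase. An H2009-specific region at chr5:1295279-1295882 lay 0.117 kb from the placed TERT start. Folds there were 7.79 and 8.18, at percentiles 92.57 and 94.96 of the lists, with summits 91 bp apart. No other line of the series had a peak there, nor did the 4 further H2009 lists. TERT was picked out after its values were seen.

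Line-specific peaks were weaker than shared ones within their own lists. The fold enrichment is the authors' value for a peak and was used only to rank peaks in 1 list. In H358 the median fold of line-specific peaks was 4.95 and 4.94, against 6.21 and 6.17 for peaks in regions of all 4 libraries. In H2009 it was 5.16 and 5.24, against 5.85 and 5.82. As percentiles of their lists, line-specific peaks had medians of 38.8 and 38.3 in H358 and 46.8 and 48.2 in H2009, and shared peaks 69.8, 69.3, 65.98 and 65.03. Both peaks lay in the upper part of their lists, above percentile 50, in 609 H358-specific regions (20.1%) and 919 H2009-specific regions (30.7%). Both lay in the top 10% in 25 and 50 regions.

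**Figure D5:**
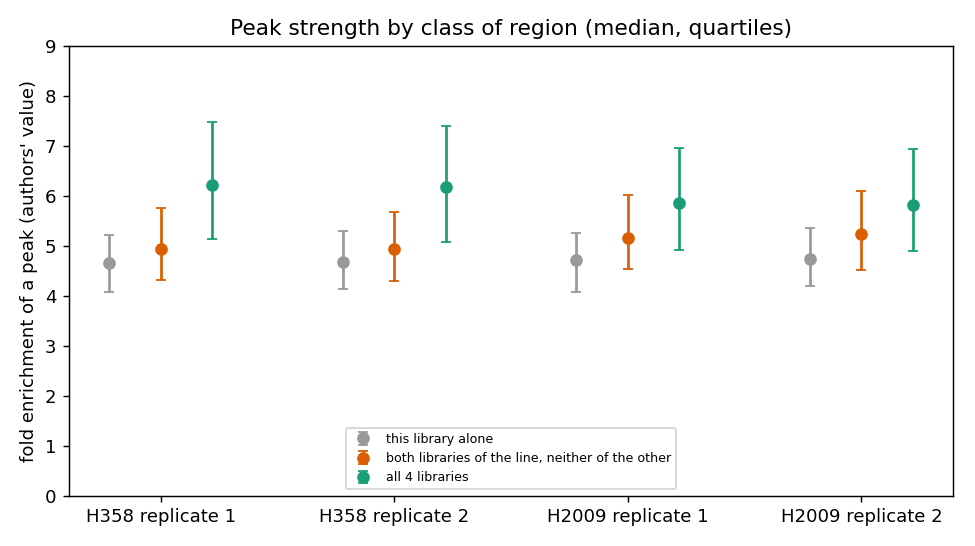
Authors' fold enrichment of peaks (vertical axis) in each library, by class of region; points are medians and bars run from the lower to the upper quartile. In all 4 libraries peaks of line-specific regions, with medians from 4.94 to 5.24, lie between peaks found in that library alone and peaks of regions in all 4 libraries.

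Line-specific regions had a median width of 453 bp in H358 and 460 bp in H2009, against 746 bp for shared regions, whose width is the union of peaks from 4 libraries rather than 2. Summits of the 2 replicates lay a median of 85 and 90 bp apart, close to the 82 and 88 bp of shared regions. The median distance to the nearest region of all 4 libraries was 54.8 kb for H358 and 58.7 kb for H2009. Within 10 kb of such a region lay 19.95% and 16.72% of them, and beyond 100 kb 35.9% and 36.7%. Another region specific to the same line lay within 50 kb of 919 H358-specific regions (30.3%) and 727 H2009-specific regions (24.3%).

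The 3 strongest line-specific regions of H358 were on chromosome 22, led by chr22:18688124-18688607 with folds of 17.2 and 16.2, and each of these 3 also had a peak in HCC95. Peaks at KIZ, which encodes a centrosomal protein (chr20:21106779-21107225, folds 12.7 and 10.8), and CFAP61, a gene of motile cilia (chr20:20032364-20033098, folds 10.7 and 11.3), were among the first 10. A region at chrX:58561205-58561646 had a peak in all 4 further H2009 lists, against its H358-specific class. For H2009 the strongest region was chr1:145075296-145075922, with folds of 11.02 and 12.1, and SLC35G1 held the tenth at its start, with folds of 8.95 and 8.52. Of the 10 strongest regions, 9 in H358 and 8 in H2009 had a peak in a list of another line. Peaks were filtered by chromosome alone here, so regions prone to mapping error were not taken out.

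The 5 widest H358-specific regions each lay at a gene start, 3 of which (SOX5, MRC2 and CDH11) were placed after the regions were seen. SOX5, a factor of cartilage and neural development, had an H358-specific region of 1627 bp at chr12:24714580-24716206, just wider than the FOXA2 region. SMAD3, MRC2, a collagen receptor, and CDH11, a mesenchymal cadherin, held the other 3 of the first 5, from 1491 to 1583 bp. CDH11 had folds of 5.02 and 4.44, with no peak in any other list of the series. In H2009 the widest region, 1537 bp at chr6:26233475-26235011, lay at the histone gene H1-3, and HOXB7 held the fifth.

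The 4 further H2009 lists, labelled Empty, Control, e3KRAB1 and e3KRAB2, took no part in choosing the regions. These lists were short, with 1375 to 3250 peaks, so few regions of either class could be found in them. They held 2.11%, 3.34%, 2.44% and 1.64% of H2009-specific regions and 0.856%, 1.45%, 0.527% and 0.329% of H358-specific regions, in that order of lists. H2009-specific regions were found more often in 4 of 4 lists, by 1.59 ± 0.362 percentage points (SD, n = 4), and the two-sided exact paired permutation p was 0.125, the smallest that 4 lists allow. When a peak had to cover at least 50% of a region, the difference was 0.712 points. Peak names in the list labelled e3KRAB2 carry a control tag, which goes against its label. Without it the difference was 1.69 ± 0.378 points (SD, n = 3). The 4 lists held 9.16% to 21.0% of the regions shared by all 4 libraries.

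Most line-specific regions had a peak in at least 1 other line of the series. This held for 2107 H358-specific regions (69.4%) and 2092 H2009-specific regions (70.0%). HCC95, a squamous lung carcinoma line, had a peak in 34.5% of H358-specific and 32.2% of H2009-specific regions. Ishikawa, an endometrial carcinoma line, had peaks in 41.4% and 39.8% of H358-specific regions in its 2 lists and in 30.6% and 28.5% of H2009-specific regions. BICR31, which the labels and the design text place in different tumour types, had peaks in 54.2% and 58.5%. Whether these differences between lines exceed the spread of libraries was not tested, since HCC95 and BICR31 have 1 library each.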

How the data were processed

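H3K27ac ChIP-seq was deposited by the authors as 1 peak list per library. The submitters' processing notes name BWA and the hg19 build. Nothing on the aligner's version, peak caller, control or pooling is given in the sources used here. For each peak the authors deposited a fold enrichment ratio, a −log10 p, a −log10 q, a score derived from q and another value, the summit offset in bases. Each is the authors' own value within its list.

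Peaks outside chromosomes 1 to 22 and X were left out (121 of 107240). Overlapping peaks (at least 1 bp) were merged with Python 3.11.15, numpy 2.4.6 and pandas 2.3.3. Exact permutation tests enumerated every assignment, and 95% Wilson intervals used scipy 1.17.1. The procedure was tested on simulated data. Replicate numbers come from the labels; a fit with the number as a block was tried. Alternatives were equal list length, higher-ranked peaks, wider merging, a margin for absence, peak cover, window size, −log10 q, peak width and leaving out libraries.

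Members and gene lists were chosen with earlier results of these data known. Named are every listed gene whose neighbourhood leaned to a line, NKX2-1, FOXA1, FOXA2, GATA6, EGFR and MYC, and per line the 10 strongest and 5 widest regions and the densest windows of 1 Mb; the start-site rule and other names were added after values were seen. Some items of the rule are not reported here. No hg19 annotation was used. Gene starts were placed by hand for 185 genes (32 after values were seen) and checked against the RefSeq GRCh38.p14 table: 185 lay on the same chromosome, and 1 of 163 neighbour pairs stood in another order. An error of some kb in a placed start would change which start regions are counted. Promoter sequences are from RefSeq.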

Additional observations from a re-analysis of the deposited data

How the results depend on the processing

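No gene that leaned to a line changed direction under the alternatives run. The number of line-specific regions followed how strictly absence and replication were asked for. Of the genes that leaned to neither, GATA6 went from -180 to 83 bp (H358 minus H2009) and EGFR from -351 to 86 bp with the higher-ranked 50% of each list. Keeping the higher-ranked 50% of each list gave 1585 H358-specific and 1441 H2009-specific regions, and 9 genes leaning to each line; FOXA1, SPRY4 and AXIN2 no longer leaned to H358. Leaving out libraries gave 4650 to 11330 H358-specific and 4248 to 10997 H2009-specific regions. Leaving out replicate 1 or replicate 2 of both lines gave 21 to 22 genes leaning to H358 and 9 to 16 to H2009. Leaving out 1 library of 1 line at a time was added after seeing the data. Ranked by −log10 q, the median percentiles of line-specific peaks were 40.7 and 39.0 in H358 and 42.5 and 42.3 in H2009, and among peaks of 200 to 400 bp alone they were 50.1, 46.8, 52.4 and 53.7, against 66.3, 64.3, 62.7 and 60.3 for shared peaks of these widths. Windows of 50 kb to each side ended the leaning of LPCAT1, AKR1B10 and SPRY4, and MYC then leaned to H358, as it did without replicate 1. Windows of 250 kb ended that of LPCAT1, FOSL1, DUSP4, SPRY4 and SMAD3; the cause was not tested. Equal list length, a merging distance of 500 bp, a margin of 1 kb for absence and 50% cover moved no count of line-specific regions by more than 1.5 times, while 50% cover lowered the difference in the further H2009 lists from 1.59 to 0.712 points. With the replicate number as a block, 2 assignments remained and the p was 0.5. The numbers gave no sign of pairing: over the regions, replicate 1 minus replicate 2 in H358 and in H2009 had a correlation of 0.00115, which is a description. Without read numbers, a weak signal under the calling threshold cannot be told apart from absence, and 20441 of 46974 regions came from 1 library.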
